A study of Mus musculus with 26 samples.

Results

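Slc2a2 encodes GLUT2, the glucose transporter of mouse beta cells, and its mRNA was followed here over the 12 groups of a study of pancreatic islets kept at different glucose concentrations. The gene was taken by its annotation: of 45101 probe sets on the arrays, 1 (1449067_at, designed on NM_031197) names Slc2a2 and no other gene, and it stands for Slc2a2 among the 12580 genes tested. No second probe set was there to check it, so every Slc2a2 value below comes from that one. The gene lies on chromosome 3, from 28697903 to 28728361 on the forward strand of GRCm38.p6.

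GLUT2 passes glucose by facilitated diffusion, with a low affinity and a high capacity, so that glucose inside a beta cell follows glucose outside it. The breakdown of the sugar then raises ATP, closes potassium channels and leads to insulin release. In rodents Slc2a2 is the main glucose transporter gene of beta cells, and it is also active in liver, kidney and intestine, while alpha cells and most other islet cells rely on other transporters. The homeodomain factor PDX1 is known to act on the Slc2a2 promoter.

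All islets came from wild-type male C57/Bl6J mice, old (56 weeks) or young (5 weeks). For the dose series, islets had 1 day of recovery at 11 mM glucose in RPMI medium, and 2 further days at 3, 5.5 or 11 mM (both ages) or at 16 mM (young). The 11 mM islets thus stayed at the glucose of recovery, and those at other doses were moved from it. Rises, falls and gains between doses below compare separate cultures and follow no islets over time. Fresh islets of both ages were not cultured. In a time course, young islets were sampled after a night at 3 mM (0 h) and after 1 and 4 h at 11 mM. Each group had 2 arrays and young islets at 11 mM had 4, which makes 26 arrays of total RNA. The labels call the replicates biological without a word on pooling of mice, so the p-values below cover no more than the spread among these arrays. Whole islets were measured, so fewer beta cells and less mRNA per beta cell cannot be told apart.

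The arrays fell into sets by a control measure, Gapdh signal at the 5' end over that at the 3' end, a sign of the length of the labelled RNA that the sample labels do not mention. The ratio was 1.03 to 1.48 on 12 arrays (set A: all old islets, young fresh islets, young 11 mM replicates 3 and 4) and 0.1 to 0.277 on 14 arrays (set B: the other young arrays). Old and young islets at 3 and 5.5 mM are therefore in different sets, while each dose series up to 11 mM has a comparison within 1 set. The tissue label was borne out by its markers: the insulin gene Ins2 had an intensity between 2230 and 5224 on all arrays.

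The 250 bases before the Slc2a2 start (RefSeq, chr3:28697653-28697902, forward strand, GRCm38.p6) are shown because the gene's transcript changed so much with glucose. Capitals mark each match, on either strand, to ATTGAT (the core bound by ONECUT1) or to TAAT (the core bound by homeodomain factors, PDX1 among them).

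Slc2a2 promoter: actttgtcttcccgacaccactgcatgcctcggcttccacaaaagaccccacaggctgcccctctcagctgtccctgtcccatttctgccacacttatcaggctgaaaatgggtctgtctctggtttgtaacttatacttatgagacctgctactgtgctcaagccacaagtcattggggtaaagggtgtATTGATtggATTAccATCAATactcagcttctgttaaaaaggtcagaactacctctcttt

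ATTGAT stands at -60 to -55 from the start, and its reverse complement ATCAAT at -45 to -40. Between them, TAAT lies on the reverse strand (ATTA) at -51 to -48, so the 3 matches do not overlap. Of 32851 promoter windows of this length, 6.72% hold ATTGAT on either strand, and the homeodomain core is in 54.9% of them. Other motifs of islet factors had no match in this window: GTTAAT, part of the HNF1 site, is in 6.43% of all windows. The FOXA site TGTTTAC is in 3.17% and the MAF motif TGCTGA in 16.1% of them. The E-box CACGTG, of the type bound by ChREBP, is in 6.02%, and the core element TATAAA in 12.4%, again with none here. These are matches of letters and show no binding. GC content was 47.2%, against a median of 52.4% over all windows.

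Over the 26 arrays the Slc2a2 intensity (MAS5 signal, a linear scale set by the authors to 1 level per array) ran between 695 and 8942. It was above the array's median on all 26 arrays, between the 92.6th and the 99.9th percentile of all probe sets. At high glucose it was among the brightest probe sets of the array: it ranked 97 and 243 from the top on the old 11 mM arrays, against 2804 and 3259 on the old 3 mM arrays. At its highest it reached 56.4% of the brightest probe set of the same array.

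**Figure D1:**
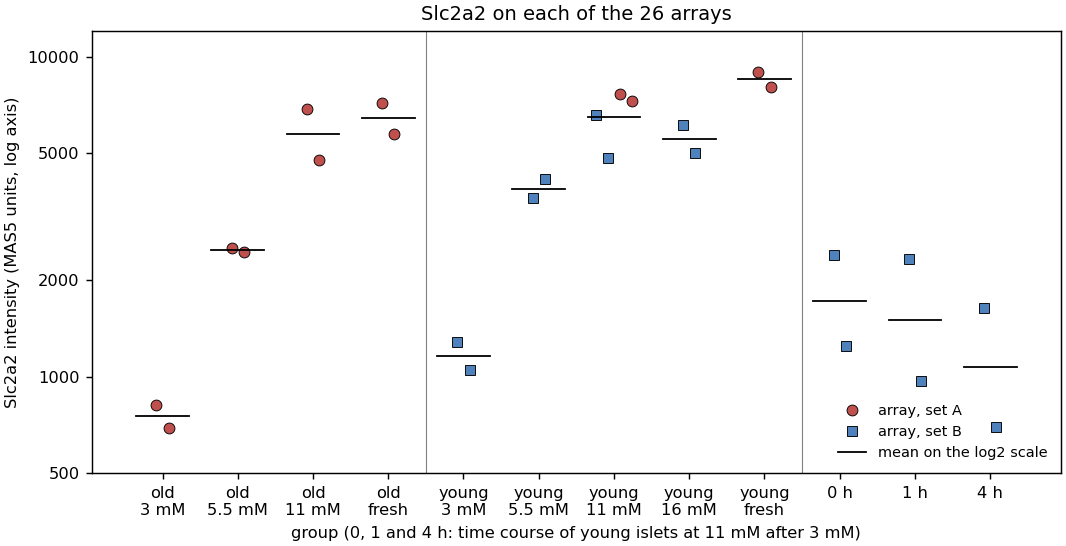
Slc2a2 intensity (MAS5 units, log axis) on each of the 26 arrays, by group; circles are arrays of set A, squares of set B, and bars the mean on the log2 scale. Arrays at 3 mM (695 to 1282) and of the time course (698 to 2394) lie below those at 11 mM for 2 days (4765 to 7637) and of fresh islets (5715 to 8942).

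Ordered by mean log2 intensity, young fresh islets came first, then young 11 mM, old fresh, old 11 mM, young 16 mM, young 5.5 mM, old 5.5 mM, 0 h, 1 h, young 3 mM, 4 h and old 3 mM. Neighbours in this order whose arrays did not overlap were young fresh and young 11 mM, young 16 and 5.5 mM, old and young 5.5 mM, and old 5.5 mM and 0 h. The other 7 neighbouring pairs overlapped.

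In old islets, Slc2a2 mRNA was higher at each higher dose, and the rise passed the threshold between 3 and 5.5 mM and between 3 and 11 mM. Intensities were 817 and 695 at 3 mM, 2520 and 2460 at 5.5 mM, and 6884 and 4765 at 11 mM. No array of 1 dose overlapped with one of another dose. The means were 756 ± 86.3, 2490 ± 42.4 and 5824.5 ± 1498 (SD, n = 2 each), or 11.7%, 38.6% and 90.3% of the mean in old fresh islets.

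On the scale log2(intensity + 16), the difference of old islets at 11 and at 3 mM was 2.90 (SE 0.37), a 7.46-fold higher signal with a limma adjusted p of 5.64e-05. In that comparison 13.8% of the 12580 genes were called, at an adjusted p under 0.05 in either direction (7.76% higher, 6.03% lower). Slc2a2 had the second largest rise of them (rank 2). From 3 to 5.5 mM alone the gain was 1.70 (SE 0.37, 3.26-fold, adjusted p = 0.0376), where 0.66% of genes were called. From 5.5 to 11 mM it was 1.20 (SE 0.37, 2.29-fold, 95% interval 0.42 to 1.98), which did not pass (adjusted p = 0.153, 0.954% of genes called). The 5.5 against 3 mM call was lost when any of its 4 arrays was left out (adjusted p 0.188 to 0.312), and the 11 against 3 mM call was kept (0.000526 to 0.00225).

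In young islets Slc2a2 was also higher at each higher dose up to 11 mM, and it was no higher at 16 than at 11 mM. Intensities were 1282 and 1049 at 3 mM, 3618 and 4134 at 5.5 mM, 6589, 4819, 7637 and 7294 at 11 mM, and 6104 and 4994 at 16 mM. The 3, 5.5 and 11 mM arrays did not overlap, and the 16 mM arrays lay inside the range at 11 mM. The means were 1165.5 ± 165, 3876 ± 365, 6584.8 ± 1255 and 5549 ± 785 (SD, n = 2, 2, 4 and 2), or 13.7%, 45.6%, 77.5% and 65.3% of the mean in young fresh islets. The fresh arrays are of set A, and the 3, 5.5 and 16 mM arrays of set B.

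Young islets at 11 mM had 5.53-fold more signal than at 3 mM (log2 2.47, SE 0.32, limma adjusted p = 2.11e-05, the rise of rank 5), in a comparison that called 30.3% of genes (14.2% higher, 16.1% lower). With the 11 mM replicates of set B only, the set of the 3 mM arrays, the log2 difference was 2.26 (adjusted p = 0.000173). The gain from 3 to 5.5 mM was 1.72 (SE 0.37, 3.30-fold, adjusted p = 0.0278, 1.18% of genes called), and it too lost its call when any of its 4 arrays was left out (adjusted p 0.0837 to 0.303).

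From 5.5 to 11 mM the young difference was 0.74 (SE 0.32, 95% interval 0.07 to 1.42, adjusted p = 0.163, 4.91% of genes called). Replicate numbers were taken to pair the young set B arrays (correlations 0.17 to 0.42), though the labels name no pairing. With array set and replicate number as blocks this step was 0.54 with an adjusted p of 0.0169. Between same-numbered arrays of set B it was 0.862 in replicate 1 and 0.22 in replicate 2. At 16 against 11 mM the difference was -0.23 (95% interval -0.91 to 0.44, adjusted p = 0.688), where 0.0159% of genes were called, and it was -0.029 against the set B replicates. Young islets at 16 mM stayed 4.71-fold above those at 3 mM (log2 2.24, SE 0.37, adjusted p = 0.00036, 18.1% of genes called).

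On the log2 scale, more of the gain lay in the first step than in the second, by amounts that did not pass the threshold in the fit without blocks. The step from 3 to 5.5 mM made up 58.7% of the log2 gain up to 11 mM in old islets and 69.9% in young islets, or 76.1% with the young set B replicates. In linear intensity it made up 34.2% in old and 50% in young islets. Per mM of glucose that is 0.68 log2 units (SE 0.15) in the first step and 0.22 (SE 0.07) in the second for old islets. For young islets it is 0.69 (SE 0.15) and 0.14 (SE 0.06). As whole steps, the second did not differ from the first past the threshold: the difference was -0.51 (SE 0.65, adjusted p = 1, 0.0318% of genes called) in old and -0.98 (SE 0.62, adjusted p = 0.91, 0.0159% called) in young islets. With the blocks, the young difference was -1.18 (adjusted p = 0.0211).

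The size of the response did not differ between ages past the threshold. Old minus young, the 11 against 3 mM differences were apart by 0.43 (SE 0.49, 95% interval -0.60 to 1.46, adjusted p = 0.701), a contrast in which 0.00795% of genes were called. For 5.5 against 3 mM they were apart by -0.02 (SE 0.53, 95% interval -1.12 to 1.08, adjusted p = 1, 0% of genes called). These intervals still allow ages to differ by about a log2 unit.

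**Figure D2:**
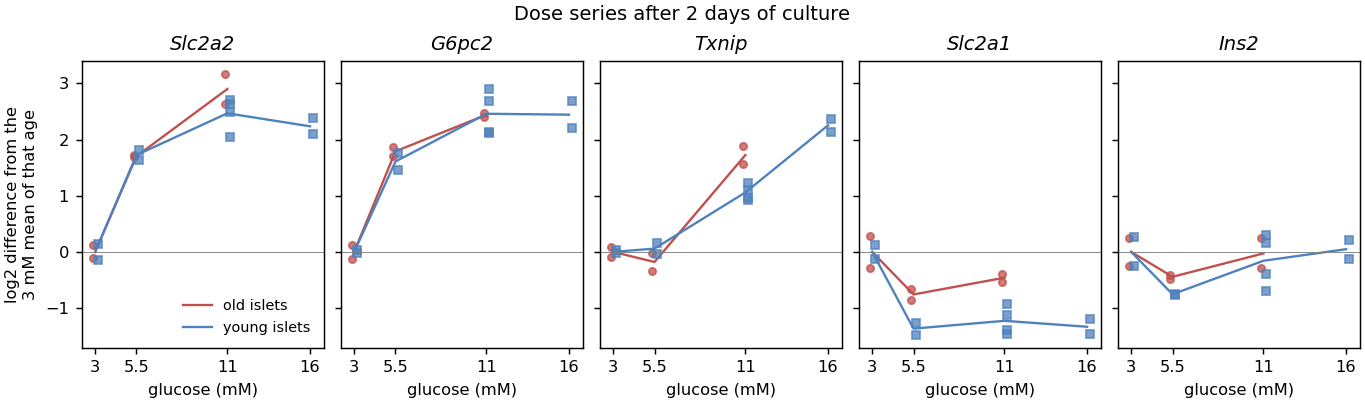
Log2 difference of each array from the mean of its own age at 3 mM, against glucose (mM), for Slc2a2 and 4 other genes; red circles are old islets, blue squares young islets, and lines join means. Slc2a2 reached 2.90 in old and 2.47 in young islets at 11 mM and had reached 1.70 and 1.72 at 5.5 mM, and G6pc2 1.79 and 1.61, while Txnip had no gain at 5.5 mM, Slc2a1 lay below 0 and Ins2 was near 0 at 11 mM.

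The mean levels of old islets lay below those of young islets at every matched condition, by amounts that did not pass the threshold. Fresh old islets had 7189 and 5715 and fresh young islets 8942 and 8060, which do not overlap (log2 -0.40, SE 0.37, limma adjusted p = 0.649, 2.11% of genes called). A spike control (cre) had 8519 to 13251 on the old fresh and 15072 to 15705 on the young fresh arrays. At 3 and 5.5 mM it was higher on the old arrays (8830 to 9578) than on the young ones (6495 to 8231). Its log2 level correlated with that of Slc2a2 at 0.73 in set A and 0.581 in set B. Over the alternatives that kept every array, the fresh difference ran between -0.405 and -0.0455. The part of array scaling in it was not tested. At 3 mM the old arrays (817, 695) were below the young ones (1282, 1049), with a difference of -0.61 (95% interval -1.39 to 0.17, adjusted p = 0.242, 21.5% of genes called). At 5.5 mM the old arrays (2520, 2460) were again below the young ones (3618, 4134), by -0.63 (95% interval -1.41 to 0.15, adjusted p = 0.24, 16.1% of genes called).

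At 11 mM the ages overlapped (old 6884 and 4765, young 4819 to 7637), with a difference of -0.18 (adjusted p = 0.789, 6.91% of genes called). Against the young 11 mM arrays of its own set A the old mean was lower by -0.38, and against those of set B higher by 0.023. At 3 and 5.5 mM, age and array set cannot be told apart on the arrays compared. In the fit with set and replicate blocks, all 4 age differences passed: -0.40 fresh (adjusted p = 0.0433), -1.02 at 3 mM (0.00334), -1.04 at 5.5 mM (0.00314) and -0.38 at 11 mM (0.0457). The set effect in that fit rests on the young 11 mM arrays alone (mean log2 12.869 in set A and 12.464 in set B). The differences at 3 and 5.5 mM carry that gap. The blocks leave no residual for the young fresh and the young 11 mM set A arrays, so these p-values do not measure their spread. Replicate numbers were not taken to pair the old arrays, which that fit blocks as well. No replicate block holds arrays of both ages, so the blocks pair no old array with a young one.

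Culture at low glucose took Slc2a2 far below the level of fresh islets, and culture at 11 mM did not do so past the threshold. In old islets, 3 mM was 8.35-fold below fresh (log2 -3.06, SE 0.37, limma adjusted p = 1.1e-05, 23.7% of genes called, 12.8% lower). In young islets it was 7.23-fold below (log2 -2.85, SE 0.37, adjusted p = 1.34e-05, 47% of genes called, 22% lower). The young 3 mM and fresh arrays are in different sets, and with array set as a block that difference was -2.45 (adjusted p = 0.00206). Every 3 mM array (695 to 1282) lay under every fresh array of its age (5715 to 8942).

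At 5.5 mM the deficit was 2.56-fold in old islets (log2 -1.36, adjusted p = 0.0266, 8.74% of genes called) and 2.19-fold in young islets (log2 -1.13, adjusted p = 0.0241, 36.7% of genes called). Both calls were lost when any 1 array was left out (adjusted p 0.0748 to 0.197 and 0.0648 to 0.119). The young 5.5 mM and fresh arrays are in different sets too, and with array set as a block their difference was -0.73 (adjusted p = 0.491).

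At 11 mM the difference from fresh was -0.16 in old (95% interval -0.94 to 0.62, adjusted p = 0.936, 2.85% of genes called) and -0.39 in young islets (95% interval -1.06 to 0.29, adjusted p = 0.458, 6.58% of genes called). Within set A, the young difference was -0.18. Young 16 mM islets were at -0.62 from fresh (adjusted p = 0.199, 35% of genes called), again with the arrays in different sets. Over the alternatives that kept every array, that difference ran between -0.621 and -0.215.

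Markers of other cells moved with culture as well. The summed intensity of 8 acinar marker genes was 153 to 1135 on the 16 arrays of the dose series, against 9521 to 36339 on the 4 fresh arrays. That of 8 endothelial markers was 500 to 680 at 3 mM in old islets, against 3006 to 3031 in fresh ones, and 425 to 481 at 3 mM in young islets, against 2922 to 3327. All 8 acinar markers were lower at 3 mM than in fresh islets at either age, as were 7 of 8 endothelial markers in old and 8 of 8 in young islets, where 12.8% and 22% of all genes were lower. In young islets 3 of 5 alpha, 4 of 5 delta and PP and 5 of 9 macrophage markers were lower too, and the macrophage marker Cd68 and the duct marker Krt7 were higher. In old islets none of the alpha, delta and PP markers was called, 2 macrophage markers were lower and 2 higher, and Krt7 was higher. The old 3 mM and fresh arrays are of the same set, and the young 3 mM and fresh arrays of different sets. The young counts and sums, and how they differ from the old ones, can therefore hold differences between the sets too. Krt7 was the only bright duct marker, with 790 to 2961 over the arrays. The other duct markers tested, Krt19 and Muc1, had at most 37 and 41 and were not called. Their part in the Slc2a2 differences from fresh islets was not tested. Between 11 and 3 mM, the acinar sums overlapped in old (182 to 556 and 168 to 670) and in young islets (315 to 904 and 465 to 666), and none of the 8 acinar markers was called.

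In the time course, Slc2a2 was not higher after 4 h at 11 mM. Replicate 1 had 2394, 2329 and 1642 and replicate 2 had 1251, 972 and 698 at 0, 1 and 4 h. Both replicates were thus lowest at 4 h, and replicate 1 was above replicate 2 at each time, by 1.91-, 2.40- and 2.35-fold. At 4 h the signal was 31.4% below its own 0 h value in replicate 1 and 44.2% below it in replicate 2. At 1 h it was 2.7% and 22.3% below.

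Without pairing, the group means at 4 h and 0 h (1170 ± 668 and 1822.5 ± 808, SD, n = 2) overlapped, with a log2 difference of -0.68 (95% interval -1.46 to 0.10, limma adjusted p = 0.394, 4.94% of genes called, 2.47% higher and 2.46% lower). Same-numbered samples of the time course deviated together over all genes (correlations 0.55 to 0.63). They were therefore taken as pairs, though the labels name no pairing and the source of the shared deviation was not tested. With array set and replicate blocks the 4 h difference was -0.68 with an adjusted p of 0.00146, and 4 h against 1 h was -0.48 (0.0314, against 0.83 without the blocks, where 0.755% of genes were called). The 1 h difference was -0.20 with an adjusted p of 1, or 0.713 with the blocks, and 0.0636% of genes were called. The 4 h difference moved between -1.29 and -0.08 with 1 array left out and no block, and the 1 h and 4 h against 1 h differences changed sign.

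Replicate 1 also had more acinar RNA: the 8 acinar markers summed to 6721, 4342 and 1784 in replicate 1 at 0, 1 and 4 h, and to 815, 238 and 813 in replicate 2. The part of these markers in the replicate gap was not tested.

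**Figure D3:**
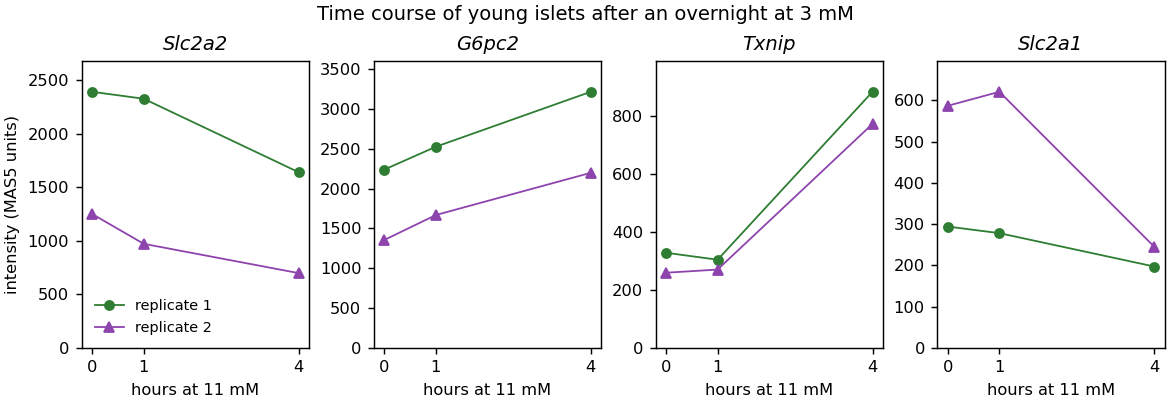
Intensity (MAS5 units) against hours at 11 mM glucose in young islets that had spent the night at 3 mM, one line per replicate, for Slc2a2 and 3 other genes. Both Slc2a2 lines are lowest at 4 h (1642 and 698), while G6pc2 and Txnip are highest then and Slc2a1 is lowest.

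At 4 h the Slc2a2 level was far from that of islets kept at 11 mM for 2 days after their recovery day at 11 mM. Those islets had not been moved to 3 mM, whereas the 4 h islets had spent the night before at 3 mM. The 4 h arrays had 1642 and 698, against 4819 to 7637 at 11 mM for 2 days, a 5.98-fold lower signal (log2 -2.58, SE 0.32, adjusted p = 1.98e-05, 28.3% of genes called, 15.5% lower). By size this fall was the second largest among 12580 genes (rank 12579 from the top rise). Against the set B replicates alone it was -2.38. At 0 h, after 1 night at 3 mM, the 2394 and 1251 compared with 1282 and 1049 after 2 days at 3 mM, a difference of 0.57 (95% interval -0.21 to 1.35, adjusted p = 0.552, 0.882% of genes called). With the blocks that difference had an adjusted p of 0.00792. The replicate blocks lie within each experiment, so they pair no 0 h array with a 3 mM array. They take the gap between replicates out of the error, so this p-value does not measure that spread.

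Among 18 other sugar transporter genes, 12 were bright enough to be tested. Of these 12, 2 (Slc2a5 and Slc5a1) rose at 11 against 3 mM in old islets and none fell, where 7.76% of all genes rose and 13.8% were called. In young islets Slc2a5 and Slc5a1 rose and Slc2a1 and Slc50a1 fell, 4 of 12 called, a share near the 30.3% of all genes. The median log2 difference was 0.20 in old and 0.21 in young islets, against 0.04 and 0.01 over all genes. Slc2a4 (the insulin-responsive GLUT4), Slc2a12, Slc5a4a, Slc5a4b, Slc5a9 and Slc5a11 were too dim to be tested, with no probe set above an intensity of 36.

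Slc2a1, which encodes GLUT1, the widespread high-affinity transporter, fell in young islets at the doses where Slc2a2 rose. It had 554 and 657 at 3 mM, 207 and 243 at 5.5 mM, 221, 209, 267 and 309 at 11 mM, and 208 and 254 at 16 mM in young islets. All 8 arrays above 3 mM lay under both 3 mM arrays, and the fall was 2.58-fold at 5.5 mM (log2 -1.37, adjusted p = 0.0336) and 2.34-fold at 11 mM (log2 -1.23, SE 0.27, adjusted p = 0.00201).

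In old islets Slc2a1 had 309 and 279 at 11 mM, against 334 and 502 at 3 mM, a difference of -0.46 (adjusted p = 0.373). The ages were not shown to differ in this (old minus young 0.77, SE 0.41, adjusted p = 0.418). All 3 Slc2a1 probe sets were lower at 11 than at 3 mM, by -0.41 to -0.62 in old and by -0.77 to -1.23 in young islets. After 4 h at 11 mM it had 197 and 245, against 294 and 587 at 0 h, a difference of -0.87 (adjusted p = 0.119, or 0.00166 with the array set and replicate blocks).

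Slc2a5, the fructose transporter GLUT5, rose with Slc2a2 by a smaller amount. Intensities at 11 mM were 1147 and 1183 in old islets, against 519 and 562 at 3 mM, 2.12-fold higher (log2 1.09, adjusted p = 0.00276). In young islets they were 768, 762, 1154 and 1063, against 527 and 521 (log2 0.80, adjusted p = 0.00458), with the 2 set A arrays the higher ones.

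Slc5a1, the sodium-coupled glucose transporter SGLT1, was dim. It had 22 and 30 in old islets at 11 mM, against 3 and 9 at 3 mM, all under the array medians (28 to 42 over the 26 arrays). In young islets it had 47, 53, 36 and 36 at 11 mM, against 14 and 14 at 3 mM, so no size is given for its rise. Slc5a10 had 57 and 94 in young islets at 16 mM, against 21 and 29 at 3 mM, and both 3 mM values were under their array medians of 28 and 32.

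Slc50a1, a SWEET-family sugar transporter, had 545 and 688 (set B) and 414 and 376 (set A) in young islets at 11 mM, against 827 and 802 at 3 mM in set B. Its fall over all arrays was -0.71 (adjusted p = 0.0116), and with array set as a block the difference was -0.40 (adjusted p = 0.0939). With the replicate block too, the adjusted p was 0.046.

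**Figure D4:**
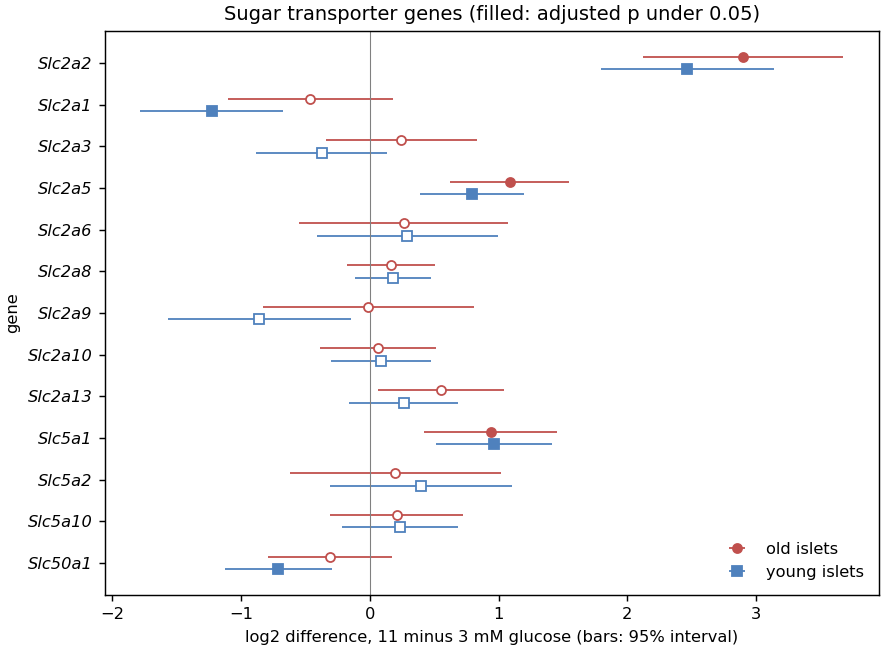
Log2 difference, 11 minus 3 mM glucose, of Slc2a2 and the 12 other sugar transporter genes tested, in old (red circles) and young islets (blue squares); bars are 95% intervals, and filled symbols have an adjusted p under 0.05. Slc2a2 stands at 2.90 and 2.47, and the highest of the others is Slc2a5 at 1.09 in old islets.

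Other beta cell genes rose with Slc2a2. Of 16 beta cell identity genes tested, 10 rose and none fell at 11 against 3 mM in old islets, and 11 rose and none fell in young islets, where 7.76% and 14.2% of all genes rose. The list's median log2 difference was 1.18 in old and 1.00 in young islets, against 0.04 and 0.01 over all genes. Ins2, the insulin gene, did not pass the threshold, at -0.03 (95% interval -0.64 to 0.58) in old and -0.16 (-0.69 to 0.37) in young islets.

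G6pc2, which encodes the islet glucose-6-phosphatase, had a dose response of similar size. It had 8120 and 7738 at 11 mM in old islets, against 1321 and 1585 at 3 mM (log2 2.44, adjusted p = 1.27e-05). In young islets it had 6701, 6749, 9948 and 11535, against 1559 and 1503 (log2 2.46, adjusted p = 5.97e-07). At 5.5 mM it was 1.79 above 3 mM in old and 1.61 in young islets. In the time course its values lay the other way, with 3219 and 2200 at 4 h and 2240 and 1355 at 0 h (log2 0.61, adjusted p = 0.253, or 0.00263 with the array set and replicate blocks).

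Pdx1 had 1103 and 1211 at 11 mM in old islets, against 393 and 416 at 3 mM (log2 1.48, adjusted p = 0.00673). In young islets at 11 mM it split by array set, with 1765 and 1696 in set B and 843 and 930 in set A, against 486 and 579 at 3 mM (log2 1.20, adjusted p = 0.00511). At 4 h it had 1329 and 867, against 811 and 478 at 0 h (log2 0.77, adjusted p = 0.248, or 0.000177 with the blocks), higher in both replicates where Slc2a2 was lower.

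Of 18 islet transcription factor genes tested, 9 rose and 1 fell in old islets (13.8% of all genes called) and 7 rose and 2 fell in young islets (30.3% called). Nkx6-1, a beta cell homeodomain factor (1.26 and 0.97), and Isl1, an islet LIM-homeodomain factor (0.84 and 0.77), rose at both ages. Pparg was the 1 that fell in old islets, and Pparg and Myt1 fell in young islets. Of 19 genes of glucose sensing and beta cell metabolism, 4 rose and 1 fell in old islets (13.8% of all genes called) and 4 rose and 2 fell in young islets, a share near the 30.3% of all genes. Among the rising ones was Pfkfb2 (1.23 and 1.24), whose enzyme makes the activator of glycolysis fructose 2,6-bisphosphate.

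Of 16 genes that couple glucose to insulin release, 5 rose and none fell in old islets (7.76% of all genes rose), and 7 rose and 1 fell in young islets (14.2% of all genes rose). The 1 that fell, the potassium channel gene Kcnj11, did not pass with array set as a block (log2 -0.14, adjusted p = 0.491). Sytl4, a granule protein gene, rose at both ages (1.50 and 1.46). None of 9 genes known to be kept low in beta cells passed the threshold at either age.

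Txnip, a textbook target of the glucose-activated factor ChREBP, had another order of values than Slc2a2. It had no gain at 5.5 mM (-0.18 in old and 0.06 in young islets), rose by 1.72 in old and 1.06 in young islets at 11 mM, and was 2.25 above 3 mM at 16 mM. After 4 h at 11 mM it had 884 and 773, against 328 and 259 at 0 h (log2 1.45, adjusted p = 0.00051). Of the 18 genes of the glucose and ChREBP list, 9 rose and 1 fell at 11 against 3 mM at either age (7.76% of all genes rose in old and 14.2% in young islets). At 4 h 3 of them (Fasn, Scd2 and Txnip) rose and 1 (Bhlhe40) fell, beside 2.47% of all genes higher and 2.46% lower. With the array set and replicate blocks Srebf1 rose too and Mlxipl fell too. None of the 16 beta cell identity genes passed the threshold at 4 h without the blocks. With them 2, G6pc2 and Pdx1, rose and none fell, where 8.8% of all genes were higher and 9.02% lower. In the same fit 1 marker each of alpha (Irx2), delta and PP (Hhex), acinar (Cela1), endothelial (Kdr) and stellate cells (Col1a2) was lower at 4 h.

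Some markers of other cell types changed between 11 and 3 mM as well, where 13.8% of all genes were called in old and 30.3% in young islets. Of 5 alpha cell markers 1 (Slc7a2) rose at either age, and of 5 delta and PP cell markers none rose in old islets and 1 (Sst) in young islets. The summed intensity of the alpha markers was 23243 to 27750 at 11 mM and 18966 to 20156 at 3 mM in old islets, and 19093 to 34110 and 16283 to 20076 in young islets. Of 9 macrophage markers, C1qa rose at both ages (1.37 and 1.76) and Adgre1 in young islets. The macrophage sum was 3114 on both arrays at 11 mM, against 2412 to 2730 at 3 mM, in old islets, and 1038 to 2379, against 979 to 1160, in young islets.

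In young islets the stellate and fibroblast markers Col3a1 and Rgs5 (of 8) rose, and the endothelial markers Kdr and Plvap (of 8) and the duct marker Krt7 (of 3) fell, while none of these 3 lists had a call in old islets. The stellate and fibroblast sum was 1850 to 1910 at 11 mM, against 1341 to 2344 at 3 mM, in old islets, and 3333 to 5290, against 3165 to 3246, in young islets. The young 11 mM arrays are of both sets and the young 3 mM arrays of set B. The young counts and sums of 11 against 3 mM can therefore hold differences between the sets too. At 16 against 3 mM, within set B, Plvap, C1qa and Sst passed, where 18.1% of all genes were called. Col3a1, Rgs5, Kdr, Krt7, Slc7a2 and Adgre1 did not pass there. The part of these markers in the Slc2a2 differences was not tested.

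In the comparison of 4 h with 2 days at 11 mM, where 28.3% of all genes were called and 15.5% were lower, 11 of 16 beta cell identity genes, 3 of 5 alpha markers (Gcg, Slc7a2 and Ttr) and 1 of 5 delta and PP markers were lower at 4 h. So were 7 of 9 macrophage markers and 7 of 8 stellate and fibroblast markers, while Kdr, Plvap, Krt7 and Cd68 were higher. The sums were 597 to 844 at 4 h, against 1038 to 2379 after 2 days, for macrophage markers, and 1379 to 1434, against 3333 to 5290, for stellate and fibroblast markers. The 4 h arrays are of set B and the 11 mM arrays of both sets, so these counts and sums can hold differences between the sets too. The part of these markers in that Slc2a2 difference was not tested.

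The genes whose pattern was most like that of Slc2a2 were found by the Pearson correlation of group means, taken separately over the 6 groups of set A and the 7 of set B, keeping the lower of both values. Among 1142 genes with a span of at least 1 log2 unit in both sets, the closest were Muc4, a membrane mucin gene (0.988 in set A and 0.983 in set B), and Olfm4, which encodes a secreted glycoprotein (0.986 and 0.978). Inhba, Maob, Mrln, Tmem215, Stox1, Fmo1, Pkib and Caps2 followed, all with both values of at least 0.958. Over the 26 arrays in 1 correlation, 3 of these 10 stayed among the closest 10 (Olfm4, Maob and Fmo1), and G6pc2 was among them at 0.944. Muc4 stood at 0.687 there (rank 888 among all genes tested) and Inhba at 0.76 (rank 442), so their likeness held within the sets more than across them. Correlations this high were not rare, since 66 of the 1142 genes had both values above 0.9, and genes of 1 array share its scaling and its mix of cells.

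Olfm4 had 1300 and 1176 in old islets at 11 mM, against 213 and 170 at 3 mM, and in young islets 1051, 1136, 1656 and 1586, against 175 and 147. At 4 h it had 316 and 172, against 314 and 189 at 0 h. Tmem215, which encodes a membrane protein, had 165 and 201 at 4 h, against 253 and 319 at 0 h, lower in both replicates, as Slc2a2 was. These genes were picked for their likeness over the same groups, so their values are a description with no test.

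The least similar genes were Ahsa1, which encodes a cochaperone of HSP90 (-0.977 in set A and -0.962 in set B), Rala, a small GTPase gene (-0.979 and -0.962), Gfer, Aaas and Agpat3.

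**Figure D5:**
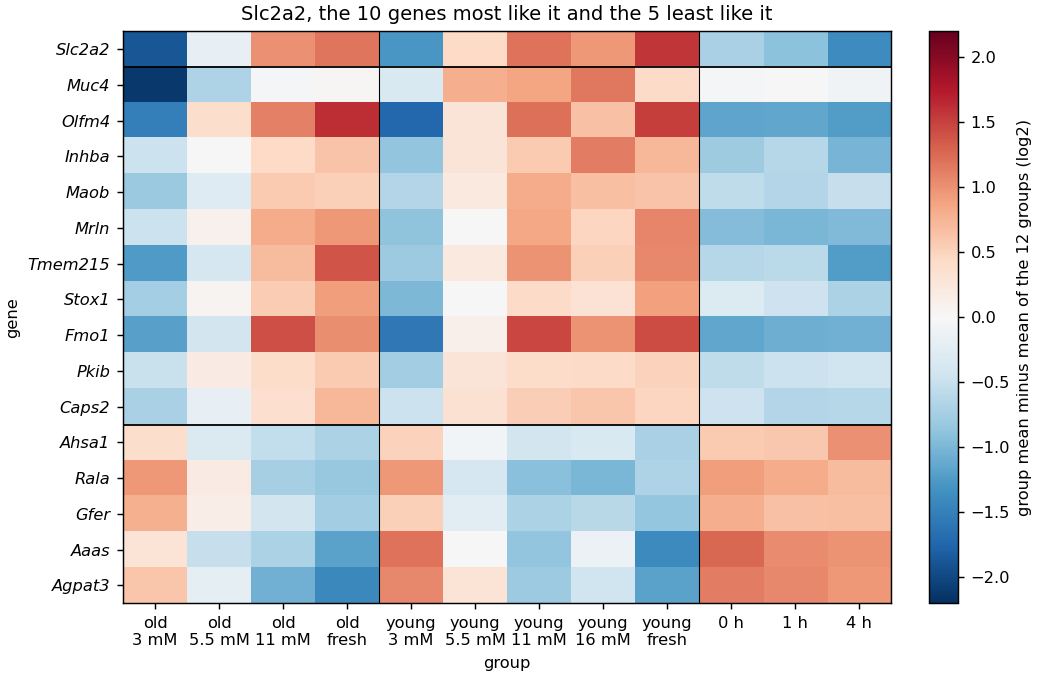
Group means of Slc2a2, the 10 genes most like it and the 5 least like it (rows), each minus that gene's mean over the 12 groups (log2, colour scale), with old groups, young groups and the time course in columns. The upper 11 rows are low at 3 mM and higher at 11 mM at both ages, and all of them but Muc4 are low in the time course, while the lower 5 rows run the other way.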

How the data were processed

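The values deposited by the authors are linear intensity, 1 per probe set. They come from MAS5, per the submitters' processing notes, and its version is not given in the sources used here. They had been scaled, since the mean of each array without its outer 2% on either side was 150. Per the labels' protocols, RNA was labelled from 50 ng through a pair of cDNA synthesis cycles. Detection calls were not analysed here.

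Probe sets with 1 gene symbol (34945 of 45101) were used, with symbols updated through Entrez identifiers in a GRCm38.p6 gene table. Those above the array median on at least 2 arrays were kept (23047), and the brightest stood for each gene. Group means of log2(intensity + 16) were estimated for all 12 groups at once (limma 3.58.1, R 4.3.3, intensity trend), and p-values were adjusted by Benjamini and Hochberg over 12580 genes within each comparison, with a threshold of 0.05. In simulated data for old islets at 11 against 3 mM, 51% of 2-fold and 96% of 4-fold changes were recovered, and 8.7% of calls were false. The number of arrays limits the precision.

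Replicate numbers were taken to pair samples where all same-number correlations of deviations from group means passed 0.1. They did in the time course (0.55 to 0.63) and in young set B cultures (0.17 to 0.42) but not in old islets (0.056 to 0.2). The young set B and old ranges overlap, and the pairing was read from the same values that the blocks were fitted to. Named genes are Slc2a2, Ins2, Pdx1, Txnip, G6pc2, the transporter list, up to 4 members a list with the smallest adjusted p, and the 10 genes most and 5 least like Slc2a2. Other names were chosen after their values were seen. Members and lists were chosen with earlier results of these data known. Alternatives changed the offset, filter, scaling, moderation, probe set choice, array set and replicate blocks, arrays fitted, and left out each array. Promoter sequence is from RefSeq.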

Additional observations from a re-analysis of the deposited data

Results flagged for a closer look

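Slc2a2 itself had no outlying array in young islets at 11 mM, the 1 group large enough (4 arrays) for Dixon's test at the 95% level. Of 71 genes examined there, 3 had an array far from the others, and chance gives about 1 in 20. Cxcl12, a chemokine gene, had an intensity of 9 on its lowest array. Rab3a, a gene of secretory granules, had 1542 on its lowest array, and Irx1, an alpha cell marker, had 138 on its highest.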

How the results depend on the processing

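Of 28 Slc2a2 comparisons, 10 passed the threshold. Over 324 alternatives that kept every array, 303 left the direction and the side of the threshold as they were, and over 140 that left out 1 array, 114 did. The 11 against 3 mM calls held in all of them (2.72 to 2.92 in old and 2.18 to 2.67 in young islets, or 2.64 to 3.16 and 2.32 to 2.61 with 1 array left out). The cause of the changes below was not tested. Old 5.5 against 3 mM (1.70) missed the threshold with no filter (adjusted p = 0.0543) and with no intensity trend (0.0548). Young 5.5 mM against fresh missed it with quantile normalization (-0.84), with the spike control level as covariate (-0.48) and with array set as a block (-0.73). With only the compared arrays, old 11 against 5.5 mM (1.20), old against young at 3 mM (-0.61) and 5.5 mM (-0.63), and young 16 mM against fresh (-0.62) passed. All of these but the first compare arrays of different sets. Choices made after seeing the data took the young 11 mM replicates by array set: with replicates 3 and 4 young 11 against 5.5 mM passed (0.95), and with replicates 1 and 2 old against young at 11 mM changed sign (0.023).

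With array set and replicate block, 10 comparisons newly passed: old 11 against 5.5 mM (1.20), young 11 against 5.5 mM (0.54), the young step difference (-1.18), old against young fresh (-0.40), at 3 mM (-1.02), 5.5 mM (-1.04) and 11 mM (-0.38), 4 h against 0 h (-0.68) and 1 h (-0.48), and 0 h against young 3 mM (0.57). The block rests on 8 residual degrees of freedom and changed no other Slc2a2 call. None of the 8 comes from the young fresh or the young 11 mM set A arrays. For the age differences and for 0 h against young 3 mM, the blocks pair no arrays across the comparison.

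With 1 array left out, 5.5 against 3 mM ran between 1.59 and 1.82 in old and 1.58 and 1.87 in young islets, and 5.5 mM against fresh between -1.52 and -1.19 in old and -1.23 and -1.04 in young islets. Sign changes occurred for the old minus young difference in 5.5 against 3 mM (-0.16 to 0.12), old against young at 11 mM (-0.44 to 0.086), old 11 mM against fresh (-0.43 to 0.10), 1 h against 0 h (-0.82 to 0.42) and 4 h against 1 h (-1.11 to 0.14).

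Counts of list members past the threshold at 11 against 3 mM moved over 1.5 times in 25 of 252 alternatives. Among these, the insulin secretion list had 5 members in old islets and 3 with the mean of probe sets, 10 with array set as a block and 11 with the replicate block too, and in young islets 8 and 4 with the spike covariate. The fall of 1 of its members (Kcnj11) in young islets was lost with no filter, quantile normalization, the spike covariate, no intensity trend and both block settings. The metabolism list had 5 members in old islets and 8 with the replicate block. The rest were marker lists with counts of 3 or fewer, and the kept-low list in old islets (1 with offset 64). Every probe set as its own feature was not run for lists, as it counts no genes.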
